A study of Mus musculus with 26 samples.

Results

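Dux and Zscan4 were compared as inducers of a totipotent-like state in mouse embryonic stem cells (ESCs) by the 2 Dux OE and the 2 Zscan4 OE libraries of the series, 4 of its 26 libraries, taken by their titles and treatment labels. All 26 libraries are poly(A) RNA-seq of the R1 ESC line, in 13 groups of 2. The Dux OE and Zscan4 OE cells were R1 cells of genotype label WT, kept in medium with leukemia inhibitory factor on gelatin, and both carried the treatment label doxycycline for 24 h. The dose in the protocol is 4 µg/mL, which the protocol states for Dux. OE stands for overexpression from a doxycycline-controlled transgene. The labels name neither its promoter, its sequence nor whether a line is 1 clone. The study speaks of biological replicates for Dux OE, without saying what was grown separately. It does not do so for Zscan4 OE in the sources used here. The p-values rest on the spread between libraries of the same group, estimated over all 13 groups together, and this spread may be technical. The references were 2 libraries of untreated R1 ESCs (ESC), which had no doxycycline, and 2 libraries of R1 ESCs given DMSO, the solvent control of the series. The difference of Dux OE and Zscan4 OE thus holds the treatment label, doxycycline for 24 h, equal, while each difference from ESC includes doxycycline. Further on, 2 groups of changed cells are also used. SE KO Dux OE is named for a knockout of the super-enhancer (SE) that the study calls Tdpoz-SE. Dux KD Zscan4 OE is named for a knockdown of Dux, for which the study used shRNAs.

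Dux is a double-homeobox transcription factor that switches on the genes of the 2-cell (2C) embryo at zygotic genome activation, many of which stand in tandem families. Zscan4 is itself such a family, of zinc finger proteins with a SCAN domain, that is on in the 2-cell embryo and in the small share of ESCs that pass through a 2C-like state, where it is tied to telomere maintenance. Zscan4 lies downstream of Dux in the embryo, and its forced expression has been used to bring ESCs towards the 2C-like state.

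The 4 libraries held 15016024 and 16092561 counts in Dux OE and 15566922 and 18579218 counts in Zscan4 OE, so that 3 counts stood for 0.163 to 0.219 CPM (counts per 1000000 counts of the scaled library total). Replicates correlated at a Pearson r of 0.998 of log2(CPM + 2) across genes in both groups, where the added 2 CPM damps the scatter of low genes. Mitochondrial genes took 3.15% and 2.92% of the counts in Dux OE and 2.58% in both Zscan4 OE libraries. The 7 ESC markers (Pou5f1, Sox2, Nanog, Esrrb, Zfp42, Dppa5a and Tdgf1) summed to 4567 and 4590 CPM in Dux OE, 6729 and 6610 CPM in Zscan4 OE, and 5356 and 5370 CPM in ESC, none of them at 0. The 7 markers of the 2C-like state (Zscan4c, Zscan4d, Zfp352, Tcstv1, Tcstv3, Usp17lc and Tdpoz4) summed to 2989 and 3077 CPM in Dux OE, 229 and 239.8 CPM in Zscan4 OE, and 20.4 and 18.3 CPM in ESC. In Zscan4 OE most of this sum was Zscan4c (100 and 103 CPM) and Zscan4d (116 and 122 CPM), members of the overexpressed family, and the other 5 markers were at 10.4 CPM or less. All 4 libraries therefore carried ESC markers, with 2C-like markers above ESC in sum. In bulk RNA, more 2C-like cells and more RNA per 2C-like cell cannot be told apart. The 3 neural markers summed to 166 and 167 CPM in Dux OE, 118 and 125 CPM in Zscan4 OE, 303 CPM in both ESC libraries and 112 and 125 CPM in DMSO, and their part in the results was not tested. The 4 primitive endoderm markers summed to 3.11 to 4.40 CPM in the 4 libraries. The trophectoderm markers stayed at or under 1.09 CPM in sum and the blood markers at or under 0.292 CPM, while 5 fibroblast markers summed to 47.2 and 44.5 CPM in Dux OE and 19.2 and 18.3 CPM in Zscan4 OE, almost all of it Thy1.

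Of 20953 genes tested, 1759 (8.39%) were higher in Dux OE than in Zscan4 OE and 1041 (4.97%) were lower, by edgeR's quasi-likelihood test, with a limit of 0.05 on the adjusted p-value (Benjamini-Hochberg) and of 1 on the size of the log2 fold change. Another 3942 genes (18.8%) stood at equal level, meaning that the 95% interval of their log2 fold change lay within 0.5 either way. The other 14211 genes were neither, 5747 of them under 1 CPM. Of the 9389 genes at 10 CPM or more, 39.7% stood at equal level and 8.22% were called. The median log2 fold change over all genes was 0.04. Of the 2800 called genes, 2793 (99.8%) had no overlap between the 2 groups' libraries, against 71.5% of all genes tested.

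**Figure D1:**
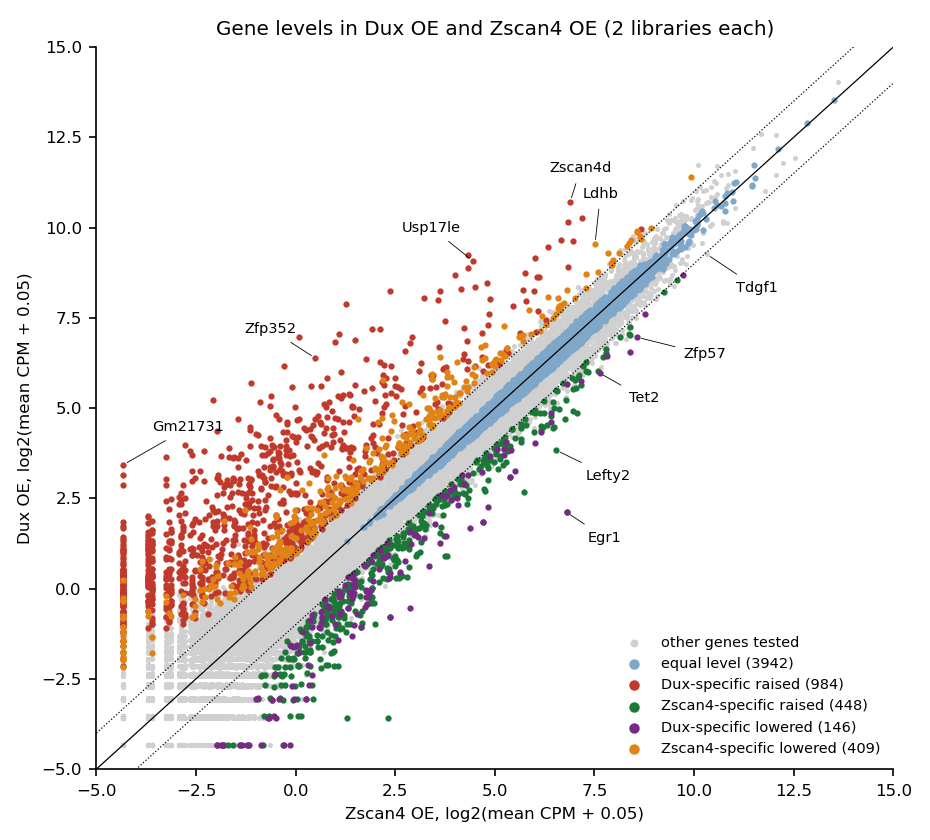
Mean level of each gene tested in Zscan4 OE (x axis) and in Dux OE (y axis), both as log2(mean CPM + 0.05) over 2 libraries. The solid line marks equal levels and the dotted lines a 2-fold difference; colours mark the 3942 genes at equal level and the genes specific to each factor, with Zscan4d, Usp17le and Zfp352 far above the line and Egr1 and Lefty2 far below it.

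Genes of both factors' own families were higher under Dux. Duxf3, the Dux copy that passed the low-count filter, had 4.01 and 3.24 CPM in Dux OE, 1.747 and 0.923 CPM in Zscan4 OE and 0.187 and 0 CPM in ESC, a log2 fold change between the factors of 1.46 (95% interval 0.61 to 2.31, adjusted p = 0.00534). Duxf3 did not hold its call without Dux OE replicate 1 (log2 fold change 1.27, adjusted p = 0.0565) or Zscan4 OE replicate 2 (1.05, adjusted p = 0.112). The Zscan4 OE libraries stood above ESC in it as well. The transgene's own sequence was not used here, and whether its reads fall on Duxf3 or on a Zscan4 copy was not tested. All 9 Zscan4 genes tested were higher in Dux OE than in Zscan4 OE, and all 9 were higher than ESC in each of the 2 groups. Zscan4c had 811 and 810.3 CPM in Dux OE, 100 and 103 CPM in Zscan4 OE and 5.73 and 6.13 CPM in ESC, a log2 fold change between the factors of 3.00 (95% interval 2.81 to 3.18, adjusted p = 9.79e-19). Zscan4-ps1 (3.87), Zscan4d (3.83) and Zscan4b (3.65) had the widest log2 fold changes of the family. Zscan4f had the narrowest, with 247 and 254 CPM in Dux OE and 56.2 and 53.2 CPM in Zscan4 OE, a log2 fold change of 2.20 (95% interval 1.92 to 2.47, adjusted p = 1.44e-12). In the Dux KD Zscan4 OE libraries, whose treatment label reads no doxycycline, Zscan4f stood at 16.04 and 13.3 CPM against 3.11 and 2.13 CPM in ESC. Zscan4c stood at 0.779 and 1.13 CPM there and so below ESC, as did every other copy but Zscan4-ps1, which had 3.51 and 2.71 CPM against 1.74 and 2.07 CPM in ESC. Of the Zscan4 genes it was therefore chiefly Zscan4f that was high in those libraries.

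Copies of the family share sequence, so the split of reads among them is uncertain. Between 9.88% (Zscan4b) and 51.6% (Zscan4-ps1) of the 50-base windows of a copy's GENCODE transcripts are found in no transcript of another gene. Summed over the 9 copies, the family reached 6658 and 6928 CPM in Dux OE, 703 and 706 CPM in Zscan4 OE, 49.95 and 50.1 CPM in ESC and 12.7 and 11.7 CPM in DMSO. The summed level in Dux OE was 9.64-fold that in Zscan4 OE, which itself was 14.1-fold that in ESC. Fitted as 1 summed gene, the log2 fold change between the factors was 3.27 (95% interval 3.07 to 3.46, adjusted p = 9.81e-19). The upstream sequences of the copies that moved together are shown here, from RefSeq on GRCm38.p6, as 65 bases 5′ to 3′ on the gene's strand, with the letters TATAAA in capitals. These letters begin 31 bases before the listed start in Zscan4b and Zscan4f, 54 in Zscan4c and 65 in Zscan4d.
Zscan4b (chr7:10905057-10905121, minus strand): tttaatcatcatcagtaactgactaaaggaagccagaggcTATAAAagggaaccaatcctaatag
Zscan4c (chr7:11005651-11005715, plus strand): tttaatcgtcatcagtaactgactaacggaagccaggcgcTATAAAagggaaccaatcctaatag
Zscan4d (chr7:11166189-11166253, minus strand): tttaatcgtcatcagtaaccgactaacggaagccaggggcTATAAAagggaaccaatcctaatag
Zscan4f (chr7:11397844-11397908, plus strand): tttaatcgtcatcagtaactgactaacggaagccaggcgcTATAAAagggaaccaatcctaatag
The stretches of Zscan4c and Zscan4f are identical in all 65 bases, and that of Zscan4d shares 63 and that of Zscan4b 61 of them. The log2 fold changes were 2.20 for Zscan4f and 3.83 for Zscan4d. The split of reads among copies is uncertain, and any relation of these values to the upstream letters was not tested.

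In their summed counts, the other tandem families of 2C genes followed the same order of Dux OE, then Zscan4 OE, then ESC. Usp17l genes code for deubiquitinating enzymes, and all 5 tested were higher in Dux OE, with a median log2 fold change of 4.64. Usp17lc had 254 and 273 CPM in Dux OE, 8.28 and 10.4 CPM in Zscan4 OE and 2.06 and 1.47 CPM in ESC. Usp17le had 528 and 553 CPM in Dux OE, 22.7 and 20.7 CPM in Zscan4 OE and 3.99 and 2.53 CPM in ESC. The levels of the groups did not overlap for either gene, and their sums over the 5 copies were 1551 and 1628 CPM in Dux OE against 64.3 and 63.3 CPM in Zscan4 OE. The upstream stretches of 3 copies, printed in the same way with TATAAA or TTTAAA in capitals, are these. The capitals begin 46 bases before the listed start in Usp17la, 31 in Usp17lb and 88 in Usp17lc.
Usp17la (chr7:104856930-104856994, plus strand): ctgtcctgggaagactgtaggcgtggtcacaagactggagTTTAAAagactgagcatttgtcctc
Usp17lb (chr7:104842590-104842654, minus strand): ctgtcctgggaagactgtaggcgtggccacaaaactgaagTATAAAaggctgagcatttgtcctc
Usp17lc (chr7:103416568-103416632, plus strand): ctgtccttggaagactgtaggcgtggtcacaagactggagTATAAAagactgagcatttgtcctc
The log2 fold changes between the factors were 4.62 for Usp17la, 4.70 for Usp17lb and 4.81 for Usp17lc. Usp17la and Usp17lc are identical in 63 of the 65 bases.

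The Tcstv genes, a cluster on chromosome 13 named after the 2-cell stage, had the highest median log2 fold change of the families. All 5 tested were higher in Dux OE, with log2 fold changes from 5.29 to 7.66 and a median of 6.42. Tcstv3 had 123 and 143 CPM in Dux OE, 1.94 and 2.23 CPM in Zscan4 OE and 0.249 and 0.267 CPM in ESC. BC147527 had 127 and 123 CPM in Dux OE and 0.971 and 1.03 CPM in Zscan4 OE. Summed over the cluster, Dux OE had 465 and 467 CPM, Zscan4 OE 7.64 and 6.95 CPM and ESC 0.810 and 0.667 CPM. The stretches were found by a search of chosen genes for TATAAA, else TATAAG, else TTTAAA, and a gene where none was found gave no stretch. How common TATAAG and TTTAAA are in other promoters was not counted. AF067061, with 152 and 138 CPM in Dux OE and 3.82 and 3.58 CPM in Zscan4 OE, and the genes Zfp352 and Sp110 described after it have the letters TATAAG, in capitals, in their upstream stretch, which begin 56, 28 and 27 bases before the listed start.
AF067061 (chr13:120262999-120263063, plus strand): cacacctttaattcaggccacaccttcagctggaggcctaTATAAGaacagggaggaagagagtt
Zfp352 (chr4:90218752-90218816, plus strand): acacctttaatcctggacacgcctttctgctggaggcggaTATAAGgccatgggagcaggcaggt
Sp110 (chr1:85603894-85603958, minus strand): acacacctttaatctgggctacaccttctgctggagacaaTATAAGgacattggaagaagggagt
Zfp352, a zinc finger gene of the 2-cell embryo, had 83.4 and 84.1 CPM in Dux OE, 1.23 and 1.47 CPM in Zscan4 OE and 0.187 and 0 CPM in ESC, a log2 fold change of 5.94 (95% interval 5.40 to 6.49, adjusted p = 7.23e-16). Sp110, a nuclear body protein gene, had 60.9 and 66.6 CPM in Dux OE and 2.14 and 2.17 CPM in Zscan4 OE, a log2 fold change of 4.88 (95% interval 4.24 to 5.53, adjusted p = 5.50e-13). Compared without gaps or shifts, the stretches of AF067061 and Zfp352 share 36 of 65 bases, and that of Sp110 shares 28 with each of them. Letters that the stretches share at shifted places are not counted in this.

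Tdpoz genes code for TRAF- and BTB-domain proteins. Of 7 tested, 6 were higher in Dux OE, and the median log2 fold change was 5.10, or 3.50 when the 2 genes without a count in Zscan4 OE are set to the bound that 3 counts per library allow. Tdpoz4 had 30.8 and 34.4 CPM in Dux OE, 0.841 and 1.03 CPM in Zscan4 OE and 0.249 and 0.133 CPM in ESC. Tdpoz3 had 35.3 and 38.5 CPM in Dux OE, 3.37 and 4.45 CPM in Zscan4 OE and 0.498 and 0.400 CPM in ESC, so that Zscan4 OE stood above ESC for it by a log2 fold change of 3.11. Tdpoz1 had 1.60 and 2.43 CPM in Dux OE and no count in either Zscan4 OE library, at least 11.3-fold higher against a floor of 3 counts per library. The exception was Tdpoz6, with 0 and 0.0676 CPM in Dux OE and no count in Zscan4 OE. Obox genes code for homeobox proteins of the oocyte and early embryo, and 2 of 3 tested were higher in Dux OE. Obox3 had 2.19 and 2.43 CPM in Dux OE and no count in Zscan4 OE, at least 12.9-fold higher. Obox6, by contrast, had 1.24 and 1.28 CPM in Dux OE, 1.16 and 0.923 CPM in Zscan4 OE and 0.1246 and 0 CPM in ESC, with a log2 fold change between the factors of 0.28 (95% interval -0.71 to 1.28, adjusted p = 0.685). It was neither called nor at equal level, with its Zscan4 OE libraries well above ESC.

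All 11 Eif1a-like genes tested, copies of a translation initiation factor gene that are on in the 2-cell embryo, were higher in Dux OE, with log2 fold changes from 2.37 to 10.71. Gm5662 had 756 and 829.8 CPM in Dux OE, 129 and 119 CPM in Zscan4 OE and 11.8 and 10.5 CPM in ESC. Gm2016 had 369.9 and 425 CPM in Dux OE and 74.1 and 63.4 CPM in Zscan4 OE. In the summed counts, Dux OE was 6.86-fold Zscan4 OE for this family, beside 9.64-fold for Zscan4, 24.9-fold for Usp17l and 63.9-fold for the Tcstv genes. Gm21731 had 10.8 and 10.7 CPM in Dux OE and no count in Zscan4 OE, ESC or DMSO, at least 60.1-fold higher than in Zscan4 OE. Trim75, a tripartite motif gene, had 34.3 and 30.4 CPM in Dux OE, 3.30 and 1.96 CPM in Zscan4 OE and 0.187 and 0.333 CPM in ESC. Its relative Trim43a went the other way at low level, with 0.656 and 0.338 CPM in Dux OE and 1.62 and 1.63 CPM in Zscan4 OE, a log2 fold change of -1.71 (95% interval -2.78 to -0.64, adjusted p = 0.00606) that was not called without Dux OE replicate 2 (-1.35, adjusted p = 0.0903).

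Pramel genes, a large family of leucine-rich repeat proteins of germ cells and the early embryo, split between the factors. Of 16 tested, 9 were higher and 2 lower in Dux OE, with a median of 2.44, or 1.96 with 1 gene at its bound. Pramef25 had 122 and 129 CPM in Dux OE, 7.83 and 7.33 CPM in Zscan4 OE and 0.249 and 0.533 CPM in ESC. Gm13119 had 50.4 and 51.4 CPM in Dux OE, 12.6 and 12.9 CPM in Zscan4 OE and 0.561 and 0.733 CPM in ESC, and so was raised over ESC by both. The 2 genes lower in Dux OE were Pramel6 and Pramel7, which promote the ground state of pluripotency. Pramel6 had 0.0729 and 0.0676 CPM in Dux OE, 1.55 and 1.03 CPM in Zscan4 OE and 0.0623 and 0.133 CPM in ESC, and Pramel7 had 0.729 and 0.406 CPM in Dux OE, 1.88 and 1.85 CPM in Zscan4 OE and 0.0623 and 0.0667 CPM in ESC. Without Dux OE replicate 2, the log2 fold change of Pramel7 was -1.39 (adjusted p = 0.0675) and no longer called. Pramef8 lay on the Zscan4 side with 13.5 and 14.53 CPM in Dux OE and 24.5 and 24.3 CPM in Zscan4 OE, a log2 fold change of -0.80 that is short of the threshold.

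Among 24 other 2C genes tested, 19 were higher and 1 lower in Dux OE, with a median log2 fold change of 2.39. Ubtfl1, a transcription factor gene, had 23.8 and 24.8 CPM in Dux OE and 2.39 and 2.55 CPM in Zscan4 OE. Spz1, also a transcription factor gene, had 14.7 and 15.9 CPM in Dux OE and 0.777 and 0.652 CPM in Zscan4 OE. Tmem92, a membrane protein gene, had 59.9 and 59.6 CPM in Dux OE, 10.4 and 10.4 CPM in Zscan4 OE and 0.685 and 0.400 CPM in ESC. Gm4340, also known from 2C-like cells, had 399.8 and 205 CPM in Dux OE and 52.3 and 74.4 CPM in Zscan4 OE, and its Dux OE replicates lay far apart. Arg2, which codes for an arginase, was the member nearest the fold threshold, with 13.1 and 13.6 CPM in Dux OE and 7.12 and 5.70 CPM in Zscan4 OE, a log2 fold change of 1.06. Patl2, an RNA-binding protein gene of the oocyte, was the gene lower in Dux OE, with 5.69 and 5.14 CPM there, 11.6 and 12.2 CPM in Zscan4 OE and 2.30 and 2.13 CPM in ESC. Over all 10 families and lists of 2C genes, 85 of 128 listed genes were tested, 68 were higher and 4 lower in Dux OE, and the median was 3.15, beside 8.39% higher, 4.97% lower and a median of 0.04 over all genes.

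**Figure D2:**
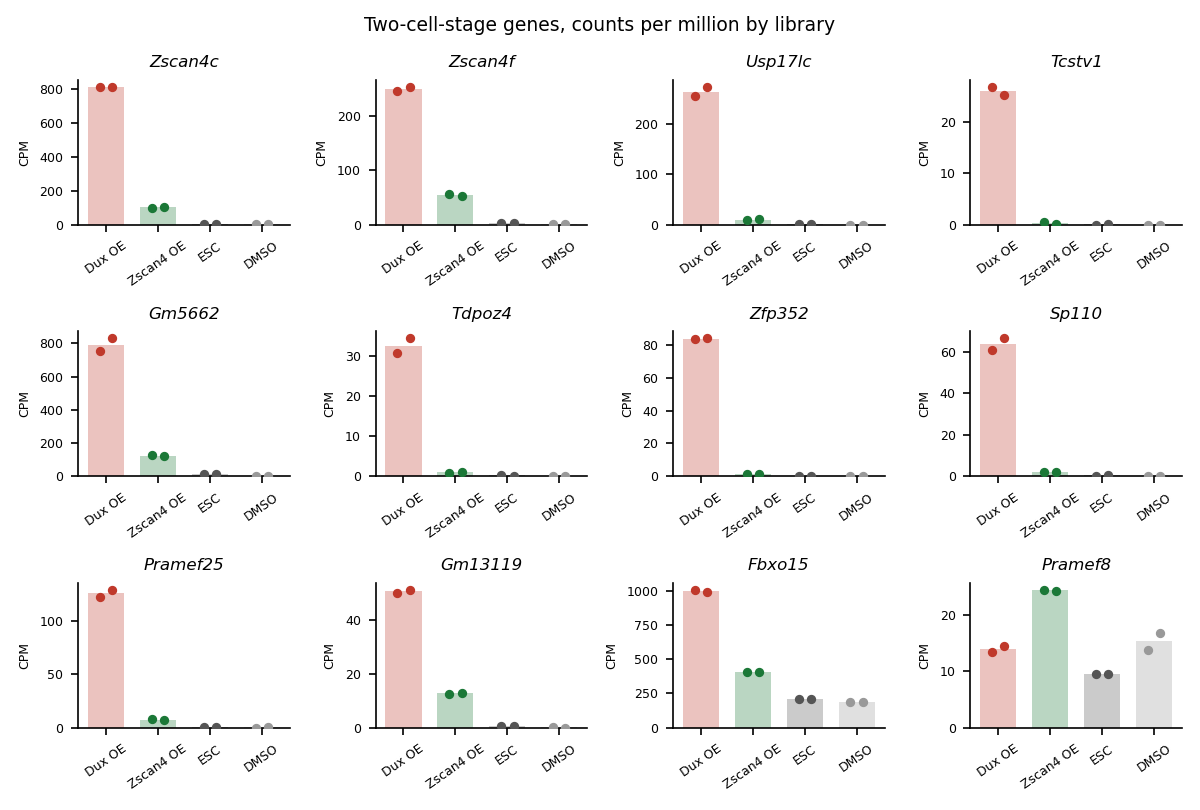
CPM (y axis, from 0) of 12 genes in the 2 libraries each of Dux OE, Zscan4 OE, ESC and DMSO (points), with the group mean as a bar. Dux OE exceeds Zscan4 OE in 11 of the genes, among them the pluripotency gene Fbxo15, while Pramef8 is highest in Zscan4 OE.

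A gene was counted as specific to a factor when it was called both against the other factor and, in the same direction, against ESC. The 2 calls share the libraries of that factor. Against ESC alone, Dux OE had 1547 genes higher (7.38%) and 445 lower (2.12%), and Zscan4 OE had 1520 higher (7.25%) and 919 lower (4.39%). The Dux-specific raised genes numbered 984 (4.70%), the Zscan4-specific raised genes 448 (2.14%), the Dux-specific lowered genes 146 (0.697%) and the Zscan4-specific lowered genes 409 (1.95%). Of the 984 Dux-specific raised genes, 320 were also called higher in Zscan4 OE than in ESC, at a lower level than in Dux OE. The classes met the other reference unequally. Of the Dux-specific raised genes, 907 (92.2%) were also higher in Dux OE than in DMSO, while 161 (35.9%) of the Zscan4-specific raised genes were higher in Zscan4 OE than in DMSO and 135 (33.0%) of the Zscan4-specific lowered genes were lower there.

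The Dux-specific raised genes had a median of 3.30 CPM in Dux OE, 0.384 CPM in Zscan4 OE, 0.0934 CPM in ESC and 0.0274 CPM in DMSO, and 100 of them had no count in Zscan4 OE. The 12 with the widest difference at 5 CPM or more were mostly predicted genes and RIKEN or GenBank clones. Gm5543 had 8.53 and 9.19 CPM in Dux OE and no count in Zscan4 OE, at least 49.6-fold higher, and Gm15640 had 6.63 and 7.91 CPM in Dux OE, at least 40.7-fold higher. Spopfm2, a relative of the ubiquitin ligase adaptor Spop, had 11.3 and 13.8 CPM in Dux OE and 2 counts over both Zscan4 OE libraries, a ratio of 213 (95% counting interval 58.6 to 1767). Spdye4b, of the family of cell cycle activators of the Speedy type, had 15.6 and 15.7 CPM in Dux OE and 3 counts over both Zscan4 OE libraries, a ratio of 177 (95% counting interval 60.0 to 859.5). AF067063, of the Tcstv cluster, had 36.6 and 38.1 CPM in Dux OE and 0.324 and 0.0543 CPM in Zscan4 OE, a log2 fold change of 7.66 (95% interval 6.28 to 9.05, adjusted p = 6.76e-13). Zfp353-ps, a zinc finger pseudogene, had 53.5 and 50.2 CPM in Dux OE and 0.388 and 0.435 CPM in Zscan4 OE, a log2 fold change of 6.95 (95% interval 6.06 to 7.84, adjusted p = 1.32e-14). All of these were near or at 0 in ESC. That they were lower in Zscan4 OE and ESC than in Dux OE was fixed by the choice of the genes.

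The promoters of the Dux-specific raised genes are described next by their letters, with no test. A RefSeq promoter of 300 bases, 250 before and 50 after the first listed start, was found for 401 of the 984 Dux-specific raised genes (40.8%), 296 of the 448 Zscan4-specific raised genes, 3165 of the 3942 equal-level genes and 13364 of all genes tested. The median number of CG dinucleotides in it was 6 for the Dux-specific raised genes, 15 for the Zscan4-specific raised genes, 23 for the equal-level genes and 19 for all tested, and it was 7 over all 27025 RefSeq promoters, expressed or not. Under 5 CG dinucleotides were held by 43.4%, 13.5%, 2.84% and 12.2% of them, and by 38.3% of all RefSeq promoters. The letters TATAAA on the gene's strand in the last 50 bases before the start were present in 4.24% of the Dux-specific raised, 4.73% of the Zscan4-specific raised and 0.853% of the equal-level promoters, beside 1.85% over all tested and 2.88% over all RefSeq promoters. Among the 2C genes tested, 4 of 44 promoters held them there. TGCACAC, the letters of a Zscan4 motif, searched on both strands, were in 5.49%, 3.72% and 2.94% of these classes, in 3.69% of all tested and in 4.19% of all RefSeq promoters. The Dux palindrome, TGATT and its reverse complement around 1 free base, was in 0 of the 401 promoters of Dux-specific raised genes, in 2 of the 13364 of all tested and in 11 of all RefSeq promoters. These counts describe windows of 300 bases and say nothing of binding elsewhere.

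Other libraries of the series carry the names of the same factors in their titles, in changed cells. The contrasts that define the classes did not use them, but the low-count filter, the scaling and the shared estimate of the spread did. SE KO Dux OE is the Tdpoz-SE knockout given doxycycline for 24 h, and its libraries were deeper than those of Dux OE, with 39402840 and 32990350 counts. Compared with DMSO, 791 of the 984 Dux-specific raised genes (80.4%) were higher in SE KO Dux OE, against 12.3% of all genes tested. Of the 984 genes, 13 were lower, against 7.43%. Their median log2 fold change there was 5.88. Dux KD Zscan4 OE has the treatment label no doxycycline. Its summed Zscan4 counts were 23.4 and 20.1 CPM, against 703 and 706 CPM in Zscan4 OE. They were 49.95 and 50.1 CPM in ESC and 12.7 and 11.7 CPM in DMSO. In Dux KD Zscan4 OE, compared with DMSO, 94 of the 984 (9.55%) were higher, against 11.2% of all genes, and 64 were lower, against 8.01%. The Zscan4-specific raised genes had 84 of 448 higher (18.8%) and 90 lower (20.1%) in that second comparison, with a median log2 fold change of -0.02. The Dux-specific lowered genes had 47 of 146 lower (32.2%) and 18 higher in SE KO Dux OE, and the Zscan4-specific lowered genes had 47 of 409 lower and 100 higher in Dux KD Zscan4 OE. The 2 comparisons share the DMSO libraries, and the knockout and the knockdown cannot be told apart there from the transgene. Whether the Zscan4 transgene was on in Dux KD Zscan4 OE was not tested.

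Zscan4-specific raised genes had a median of 4.48 CPM in Zscan4 OE, 1.57 CPM in Dux OE, 1.41 CPM in ESC and 2.53 CPM in DMSO. Egr1, an immediate early transcription factor gene that answers to growth factor signalling, differed the most of those at 5 CPM or more. It had 106 and 118 CPM in Zscan4 OE, 3.79 and 4.73 CPM in Dux OE, 8.72 and 8.73 CPM in ESC and 34.4 and 32.3 CPM in DMSO, a log2 fold change of -4.71 (95% interval -5.17 to -4.25, adjusted p = 1.02e-15). Egr1 thus stood above both references in Zscan4 OE and below both in Dux OE. Lefty1 and Lefty2 code for secreted inhibitors of Nodal. Lefty1 had 54.6 and 51.8 CPM in Zscan4 OE, 4.67 and 8.04 CPM in Dux OE, 7.23 and 9.26 CPM in ESC and 17.7 and 18.97 CPM in DMSO, a log2 fold change of -3.05 (95% interval -3.40 to -2.70, adjusted p = 5.19e-14). Lefty2 had 94.0 and 92.8 CPM in Zscan4 OE, 13.5 and 14.8 CPM in Dux OE, 24.0 and 28.1 CPM in ESC and 118 and 109 CPM in DMSO, so that its level in Zscan4 OE lay above ESC but not above DMSO. Nodal itself stood at equal level, with 64.2 and 69.5 CPM in Dux OE and 75.9 and 74.6 CPM in Zscan4 OE.

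Aire, the autoimmune regulator, which is also on in ESCs, had 26.02 and 25.9 CPM in Zscan4 OE, 3.72 and 3.38 CPM in Dux OE, 11.1 and 9.73 CPM in ESC and 13.1 and 13.9 CPM in DMSO. Neurod1, a neurogenic transcription factor gene, had 12.9 and 13.7 CPM in Zscan4 OE, 1.750 and 1.89 CPM in Dux OE, 1.49 and 1.53 CPM in ESC and 1.42 and 1.65 CPM in DMSO, a log2 fold change of -2.87 (95% interval -3.59 to -2.14, adjusted p = 9.48e-08). For Neurod1, Dux OE and both references lay together and Zscan4 OE alone stood apart. Tex13b, a testis gene of the X chromosome, had 13.6 and 12.8 CPM in Zscan4 OE and 2.19 and 3.18 CPM in Dux OE, while it was at 0.872 and 0.933 CPM in ESC and 40.5 and 40.7 CPM in DMSO. Sgo2b, a shugoshin gene, had 6.28 and 6.35 CPM in Zscan4 OE and 1.24 and 1.22 CPM in Dux OE, and Pou2f2, a POU transcription factor gene, had 6.28 and 5.76 CPM and 1.39 and 0.946 CPM. Both were higher in Zscan4 OE than in ESC, but their levels in DMSO were 7.49 and 5.81 CPM for Sgo2b and 10.3 and 10.8 CPM for Pou2f2.

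**Figure D3:**
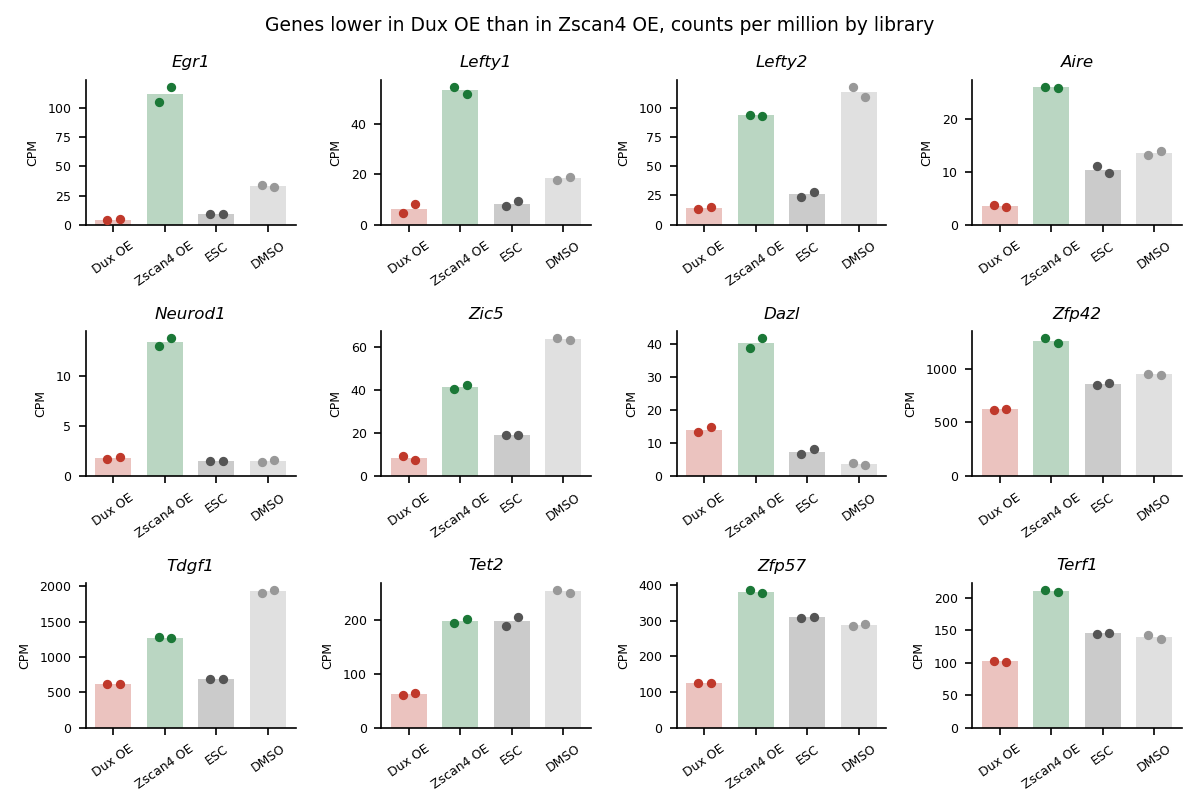
CPM (y axis, from 0) of 12 genes that were called lower in Dux OE than in Zscan4 OE, in the 2 libraries each of Dux OE, Zscan4 OE, ESC and DMSO (points), with the group mean as a bar. Egr1, Aire and Neurod1 are highest in Zscan4 OE, Tet2 and Zfp57 are lowest in Dux OE with Zscan4 OE near the references, and Lefty2, Zic5 and Tdgf1 are highest in DMSO.

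Dux-specific lowered genes were the smallest of the 4 specific classes, with a median of 0.883 CPM in Dux OE, 2.82 CPM in Zscan4 OE, 3.02 CPM in ESC and 2.72 CPM in DMSO, and 73 of the 146 were also lower in Dux OE than in DMSO. Transcription factor genes of the formative and neural lineage were among those with the widest difference. Zic2 had 2.84 and 3.45 CPM in Dux OE, 18.9 and 22.7 CPM in Zscan4 OE, 12.8 and 10.9 CPM in ESC and 28.4 and 31.7 CPM in DMSO. Foxd3 had 3.21 and 2.23 CPM in Dux OE, 13.5 and 13.5 CPM in Zscan4 OE, 27.0 and 24.9 CPM in ESC and 7.09 and 8.01 CPM in DMSO. Both factors therefore had less Foxd3 than ESC, and Dux OE had the least. Lef1, a transcription factor of Wnt signalling, had 1.09 and 1.55 CPM in Dux OE and 5.57 and 6.57 CPM in Zscan4 OE, a log2 fold change of -2.19 (95% interval -2.86 to -1.51, adjusted p = 2.61e-06). Ndrg1, a hypoxia-responsive gene, had 4.01 and 5.41 CPM in Dux OE, 27.6 and 29.3 CPM in Zscan4 OE, 13.6 and 18.7 CPM in ESC and 90.0 and 97.3 CPM in DMSO. Sall3, a spalt-type zinc finger gene, had 2.77 and 1.89 CPM in Dux OE and 11.5 and 13.04 CPM in Zscan4 OE. Spry4, a feedback inhibitor of growth factor signalling, and the next 3 genes were chosen after their values were seen. They are given by the difference of the factors only, not by their place against ESC or DMSO. Spry4 had 89.6 and 96.3 CPM in Dux OE and 337 and 335 CPM in Zscan4 OE, a log2 fold change of -1.85 (95% interval -2.03 to -1.68, adjusted p = 1.86e-15). Fos had 2.62 and 3.72 CPM in Dux OE and 8.35 and 8.69 CPM in Zscan4 OE. Etv5 stood at equal level, and Etv4 had a log2 fold change of 0.51.

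Zscan4-specific lowered genes had a median of 6.54 CPM in Dux OE, 2.05 CPM in Zscan4 OE, 6.21 CPM in ESC and 3.26 CPM in DMSO. Dux OE thus lay near ESC and Zscan4 OE nearer to DMSO in this class. Calb2, the calcium-binding protein calretinin, had 56.1 and 54.3 CPM in Dux OE, 4.66 and 4.35 CPM in Zscan4 OE, 60.5 and 65.6 CPM in ESC and 4.31 and 4.00 CPM in DMSO. Htra1, a secreted serine protease, had 25.7 and 26.02 CPM in Dux OE, 3.04 and 2.82 CPM in Zscan4 OE, 43.7 and 41.5 CPM in ESC and 3.35 and 4.11 CPM in DMSO. Steap3, a ferrireductase, had 84.4 and 84.6 CPM in Dux OE, 11.9 and 12.7 CPM in Zscan4 OE, 74.7 and 74.98 CPM in ESC and 20.1 and 21.4 CPM in DMSO. For these 3 genes the Zscan4 OE libraries lay far below Dux OE and ESC and close to DMSO, slightly above it for Calb2 and below it for Htra1 and Steap3. Khdc3, a protein of the maternal subcortical complex, had 36.5 and 35.7 CPM in Dux OE, 6.28 and 6.35 CPM in Zscan4 OE and 5.73 and 4.77 CPM in DMSO. Cpne5, a copine, differed from both references, with 10.7 and 10.5 CPM in Zscan4 OE, 61.2 and 62.5 CPM in Dux OE, 37.2 and 43.5 CPM in ESC and 32.3 and 32.7 CPM in DMSO.

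Many genes of the integrated stress response, the programme that ATF4 drives upon amino acid shortage and related stress, were lower in Zscan4 OE than in Dux OE. Of 26 tested, 14 were higher in Dux OE than in Zscan4 OE (53.8%, beside 8.39% of all genes), 2 stood at equal level, and the median log2 fold change was 1.07 beside 0.04 over all genes. Against ESC, 8 of the 26 were lower in Zscan4 OE and 2 higher, where 4.39% and 7.25% of all genes were. In Dux OE, 5 of the 26 were higher and 1 lower, where 7.38% and 2.12% of all genes were. Atf4 itself had 220.4 and 218 CPM in Dux OE, 108 and 104 CPM in Zscan4 OE, 160.3 and 169 CPM in ESC and 240.4 and 237 CPM in DMSO. Chac1, a glutathione-degrading enzyme and ATF4 target, had 11.7 and 11.6 CPM in Dux OE, 2.14 and 3.15 CPM in Zscan4 OE, 8.91 and 9.26 CPM in ESC and 29.5 and 30.4 CPM in DMSO. Trib3, a pseudokinase of the same response, had 39.7 and 38.7 CPM in Dux OE, 11.4 and 13.4 CPM in Zscan4 OE, 20.8 and 23.5 CPM in ESC and 48.1 and 47.9 CPM in DMSO. Among these 4 groups, all 3 genes were lowest in Zscan4 OE. The enzymes of serine and asparagine synthesis lay on the same side. Phgdh, the first enzyme of serine synthesis, had 313 and 309 CPM in Dux OE and 113 and 111 CPM in Zscan4 OE. Psat1, the next one, had 640.1 and 620.3 CPM in Dux OE, 231 and 226 CPM in Zscan4 OE and 663 and 652 CPM in ESC, and Asns, asparagine synthetase, had 952 and 955 CPM and 381 and 378 CPM. The tRNA synthetase genes Gars and Sars had log2 fold changes of 1.17 and 1.18, and the amino acid transporter gene Slc7a5 one of 1.12. Its relative Slc7a3 stood at equal level, with 58.3 and 57.6 CPM in Dux OE and 59.9 and 58.5 CPM in Zscan4 OE, and was lowered below ESC (116 and 119.8 CPM) in both. Slc1a4, a neutral amino acid transporter gene outside the list, was called on opposite sides of ESC, with 56.4 and 56.1 CPM in Dux OE, 10.4 and 11.0 CPM in Zscan4 OE and 20.4 and 23.2 CPM in ESC, and was chosen after its values were seen.

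**Figure D4:**
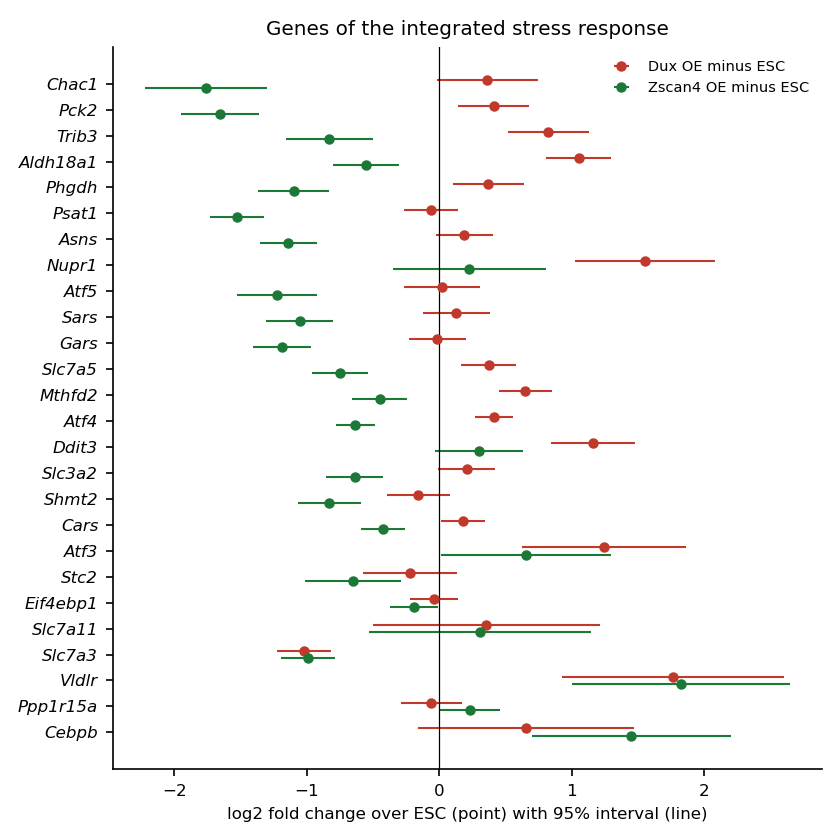
Log2 fold change over ESC (x axis) of the 26 tested genes of the integrated stress response in Dux OE and in Zscan4 OE, with the 95% interval of the fit as a line, ordered by the difference of the factors. Most Zscan4 OE points lie left of 0 and most Dux OE points at or right of it, while Slc7a3 is at about the same value in both.

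Core and naive pluripotency genes stayed on under both factors. Of 26 tested, 2 (7.69%) were higher in Dux OE, 3 (11.5%) were lower and 8 (30.8%) stood at equal level, with a median log2 fold change of -0.41. Of all genes, 8.39% were higher, 4.97% lower and 18.8% at equal level, or 39.7% at equal level among those at 10 CPM or more. Esrrb, with 985 and 973 CPM in Dux OE and 987 and 1039.6 CPM in Zscan4 OE, Klf2, Klf5, Nr5a2, Sall4, Lin28a, Utf1 and Dppa5a were the genes at equal level. Zfp42, also called Rex1, had 617 and 628 CPM in Dux OE, 1279.9 and 1233 CPM in Zscan4 OE and 849.8 and 866 CPM in ESC. Tdgf1, the Nodal co-receptor, had 611 and 616 CPM in Dux OE, 1275 and 1273 CPM in Zscan4 OE, 691 and 685 CPM in ESC and 1908 and 1949 CPM in DMSO. Dppa3, a maternal effect gene, had 1.97 and 1.42 CPM in Dux OE and 5.76 and 5.70 CPM in Zscan4 OE, a log2 fold change of -1.76 (95% interval -2.44 to -1.08, adjusted p = 8.29e-05). Pou5f1 was between the thresholds, with 505 and 530.1 CPM in Dux OE, 666 and 677 CPM in Zscan4 OE, 659 and 638 CPM in ESC and a log2 fold change of -0.38, as were Nanog (-0.82) and Sox2 (-0.82). Fbxo15 was the exception on the Dux side among the well-expressed members, with 1007 and 989 CPM in Dux OE, 408 and 410.0 CPM in Zscan4 OE and 209 and 211 CPM in ESC. Klf17, at low level, had 0.948 and 1.62 CPM in Dux OE and 0.388 and 0.217 CPM in Zscan4 OE, and its call was lost without Dux OE replicate 2 (log2 fold change 1.61, adjusted p = 0.0857) or Zscan4 OE replicate 2 (1.72, adjusted p = 0.0616).

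Of 16 genes of the formative and primed state tested, 6 (37.5%, beside 4.97% of all genes) were lower in Dux OE, 4 stood at equal level and the other 6 were neither, with a median of -0.40. Otx2, a homeobox gene of the epiblast, had 16.04 and 17.8 CPM in Dux OE, 38.4 and 39.9 CPM in Zscan4 OE and 27.9 and 28.7 CPM in ESC, and Tcf7l1, a repressor in Wnt signalling, had 13.5 and 15.3 CPM and 30.3 and 29.0 CPM. The other 4 were Foxd3, Lef1, Zic2 and Zic5. Dnmt3b, Etv5, Nodal and Pou3f1 stood at equal level. Genes that modify DNA methylation gave 2 (18.2%, beside 4.97% of all genes) lower in Dux OE and 4 (36.4%, beside 18.8%) at equal level of 11 tested. Tet2, a methylcytosine dioxygenase gene, had 60.8 and 64.5 CPM in Dux OE, 194 and 201 CPM in Zscan4 OE, 189.7 and 205 CPM in ESC and 256 and 251 CPM in DMSO, a log2 fold change of -1.66 (95% interval -1.94 to -1.37, adjusted p = 3.80e-10). Zfp57, which guards methylation at imprints, had 124 and 124 CPM in Dux OE, 387 and 377 CPM in Zscan4 OE, 309 and 310.3 CPM in ESC and 286 and 292 CPM in DMSO, a log2 fold change of -1.62 (95% interval -1.79 to -1.45, adjusted p = 3.13e-14). For both genes Dux OE lay apart from the other 3 groups. The maintenance factor Uhrf1, with Dnmt3b, Tet3 and Uhrf2, stood at equal level.

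Telomere and meiosis genes gave 3 (13.04%, beside 4.97% of all genes) lower in Dux OE and 4 (17.4%, beside 18.8%) at equal level of 23 tested, with a median of -0.11. Terf1, a telomere repeat-binding protein of the shelterin complex, had 103 and 101 CPM in Dux OE, 212 and 208 CPM in Zscan4 OE and 145 and 146 CPM in ESC. Its partners Terf2, Tinf2 and Pot1a stood at equal level. Sycp3, of the synaptonemal complex, had 2.11 and 2.70 CPM in Dux OE, 9.58 and 7.98 CPM in Zscan4 OE, 1.37 and 1.40 CPM in ESC and 9.64 and 10.8 CPM in DMSO, and Hormad1, of the meiotic chromosome axis, had 3.79 and 4.26 CPM, 13.8 and 11.9 CPM, 3.74 and 3.93 CPM and 1.93 and 1.48 CPM in the same order. Against ESC, 8 of the 23 were higher in Zscan4 OE, where 7.25% of all genes were, and 3 in Dux OE, where 7.38% were. Germline genes gave 3 (12%) lower, 1 (4%) higher and 2 (8%) at equal level of 25 tested, beside 4.97%, 8.39% and 18.8% of all genes. Dazl, a germ cell RNA-binding protein gene, had 13.2 and 14.9 CPM in Dux OE, 38.6 and 41.6 CPM in Zscan4 OE, 6.54 and 8.06 CPM in ESC and 3.97 and 3.40 CPM in DMSO. Ddx4, the germ cell helicase Vasa, had 16.6 and 15.3 CPM in Dux OE, 36.8 and 39.2 CPM in Zscan4 OE and 14.3 and 15.9 CPM in ESC. Both were called higher in Zscan4 OE than in ESC, as was Taf7l, with 7.12 and 5.92 CPM in Zscan4 OE, 1.82 and 2.50 CPM in Dux OE and 1.37 and 2.13 CPM in ESC. Tuba3a, a tubulin gene of the testis, was higher in Dux OE, with 56.1 and 53.5 CPM against 25.4 and 28.8 CPM.

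Genes of later lineages were called in either direction. Of 13 mesendoderm genes tested, 4 were lower in Dux OE (Lefty1, Lefty2, Eomes and T), and of 13 neural genes 3 were (Neurod1, Pax6 and Ncam1), beside 4.97% of all genes lower and 8.39% higher. Eomes, a T-box factor, had 3.21 and 2.97 CPM in Dux OE and 9.32 and 10.4 CPM in Zscan4 OE, and Pax6 had 0.875 and 0.608 CPM and 3.30 and 3.96 CPM. Trophectoderm genes gave 3 higher and 3 lower of 18. Tfap2c, a transcription factor of trophectoderm and germ cells, was the higher one at more than a few CPM, with 169.9 and 178 CPM in Dux OE, 75.6 and 79.9 CPM in Zscan4 OE and 64.9 and 63.3 CPM in ESC. Among matrix genes, more were higher than lower in Dux OE. Of 34 collagen genes tested, 8 (23.5%, beside 8.39% of all genes) were higher and 1 lower in Dux OE, with a median of 0.52, or 0.49 with 1 gene at its bound, and 5 of 17 fibroblast and mesenchyme genes (29.4%) were higher. Fn1, fibronectin, had 3318 and 3441 CPM in Dux OE, 1058 and 1118 CPM in Zscan4 OE, 2068 and 2144 CPM in ESC and 1240.5 and 1300.1 CPM in DMSO. The laminin gene Lamc1 and the matrix gene Sparc, of the primitive endoderm list, had log2 fold changes of 1.31 and 1.18, and Col18a1 one of 1.43. For these 4 genes Dux OE lay nearer to ESC and Zscan4 OE nearer to DMSO, as the means of 938, 378, 801 and 496 CPM for Lamc1 in Dux OE, Zscan4 OE, ESC and DMSO show. The defining fibroblast markers Col1a1, Col1a2, Col3a1 and Dcn summed with Thy1 to the levels given at the start, and their part in these results was not tested.

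Of 27 known regulators of Dux tested, 12 (44.4%) stood at equal level, near the 39.7% of all genes at 10 CPM or more, while 1 was higher and 1 lower, with a median of -0.22. The counts of this and the next lists stand beside 8.39% higher, 4.97% lower and 18.8% at equal level of all genes tested. Kdm1a, Setdb1, Chaf1a, Chaf1b, Ehmt1, Ehmt2, Smchd1 and Trp53 were among those at equal level. The activators Dppa2 and Dppa4 had log2 fold changes of -0.45 and -0.52. Myc had 16.7 and 16.4 CPM in Dux OE, 36.0 and 42.3 CPM in Zscan4 OE and 77.7 and 73.5 CPM in ESC. Of 28 p53 targets, 8 (28.6%) stood at equal level and 3 (10.7%) were lower in Dux OE, namely Epha2 (-1.35), Perp (-1.47) and Trp53inp1 (-1.04). Of 29 genes of MHC class I and antigen presentation, 1 (3.45%) was higher, 4 (13.8%) were lower and 5 (17.2%) stood at equal level. Of 39 imprinted genes, 2 (5.13%) were higher, 3 (7.69%) lower and 5 (12.8%) at equal level. Of 30 cell adhesion genes, 9 stood at equal level, among them Ctnnb1, Itgb1 and Epcam, while Itgav, an integrin subunit, was lower in Dux OE with 16.6 and 18.7 CPM against 52.4 and 49.2 CPM. Of 12 blood and endothelium genes tested, the log2 fold changes ran from -2.92 to 2.35 at low level, with a median of -0.09.

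Lists of the basic cell machinery are set here beside 39.7% of genes at 10 CPM or more at equal level, since their members are mostly well expressed. Of all genes tested, 8.39% were higher and 4.97% lower in Dux OE. Of 24 splicing factors, 14 (58.3%) stood at equal level, and all 24 had log2 fold changes between -0.99 and 0.40. Sf3b1, the target of splicing inhibitors, had 693 and 681 CPM in Dux OE and 660.0 and 702 CPM in Zscan4 OE, a log2 fold change of 0.01 (95% interval -0.15 to 0.18, adjusted p = 0.934). Of 32 proteasome genes, 15 (46.9%) stood at equal level and 1, Psmc6, was lower in Dux OE (126 and 125 CPM against 291 and 273 CPM). Of 40 nucleolar genes of ribosome biogenesis, 20 (50%) stood at equal level and 3 (Taf1d, Utp3 and Wdr43) were lower in Dux OE, by log2 fold changes of -1.02, -1.02 and -1.05. Fbl, the methyltransferase fibrillarin, had 349 and 359 CPM and 389.5 and 363 CPM. Ribosomal protein genes gave 27 (34.2%) at equal level and 4 higher in Dux OE of 79, with a median of 0.24. Rplp2 had 634 and 615 CPM in Dux OE, 292 and 260.1 CPM in Zscan4 OE and 573 and 583 CPM in ESC, and Rps16 and Rpl37a lay likewise near ESC in Dux OE. Against DMSO, which is given here for Rpl37a only, its log2 fold change was 0.83 in Dux OE and -0.28 in Zscan4 OE. For Rpl37a, Zscan4 OE was thus the group nearer to DMSO. Short genes as a whole leaned to Dux OE, with a median log2 fold change of 0.23 in the fifth of genes with the shortest exon length and -0.04 in the longest, and the part of length in these values was not tested. Among cyclins and their inhibitors, 8 of 24 (33.3%) stood at equal level, including Ccna2, Ccnb1, Cdk1 and Cdk4. Cdkn2a, an inhibitor of the cell cycle, was higher in Dux OE, with 6.85 and 9.67 CPM against 1.88 and 1.52 CPM and 6.98 and 6.40 CPM in ESC, and Ccne2 was lower, with 10.6 and 12.6 CPM against 27.5 and 28.5 CPM.

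Reference genes were not all alike. The counts here stand beside 8.39% higher, 4.97% lower and 18.8% at equal level of all genes tested. Of 20 housekeeping reference genes, 6 (30%) stood at equal level (Actb, Hprt, Ppia, Ubb and Ywhaz among them), and Actb had 1407 and 1558 CPM in Dux OE and 1465 and 1434 CPM in Zscan4 OE. Gapdh was higher in Dux OE, with 1052 and 965 CPM against 366 and 594 CPM, and its Zscan4 OE replicates differed widely, while Tfrc, the transferrin receptor, was lower, with 195 and 192 CPM against 431 and 436 CPM and 598 and 637 CPM in ESC. Of 24 glycolysis genes, 7 (29.2%) stood at equal level, 4 (16.7%) were higher and 1 (4.17%) lower in Dux OE. Ldha, with 1219 and 1179 CPM in Dux OE and 1259 and 1238 CPM in Zscan4 OE, was at equal level, whereas Ldhb, the other lactate dehydrogenase subunit, had 759 and 743 CPM in Dux OE, 187 and 179 CPM in Zscan4 OE, 499 and 501 CPM in ESC and 429 and 419.9 CPM in DMSO. The hexokinase genes split likewise, with Hk2 at equal level and Hk1 at 269.9 and 265 CPM in Dux OE and 79.9 and 80.9 CPM in Zscan4 OE. For Ldhb and Hk1, Zscan4 OE lay below both references and Dux OE above both. Of 13 mitochondrially encoded genes, 3 or 23.1% (mt-Nd4, mt-Nd5 and mt-Nd6) were higher and 2 or 15.4% (mt-Co3 and mt-Atp6) lower in Dux OE. At equal level stood mt-Co1 and mt-Cytb.

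**Figure D5:**
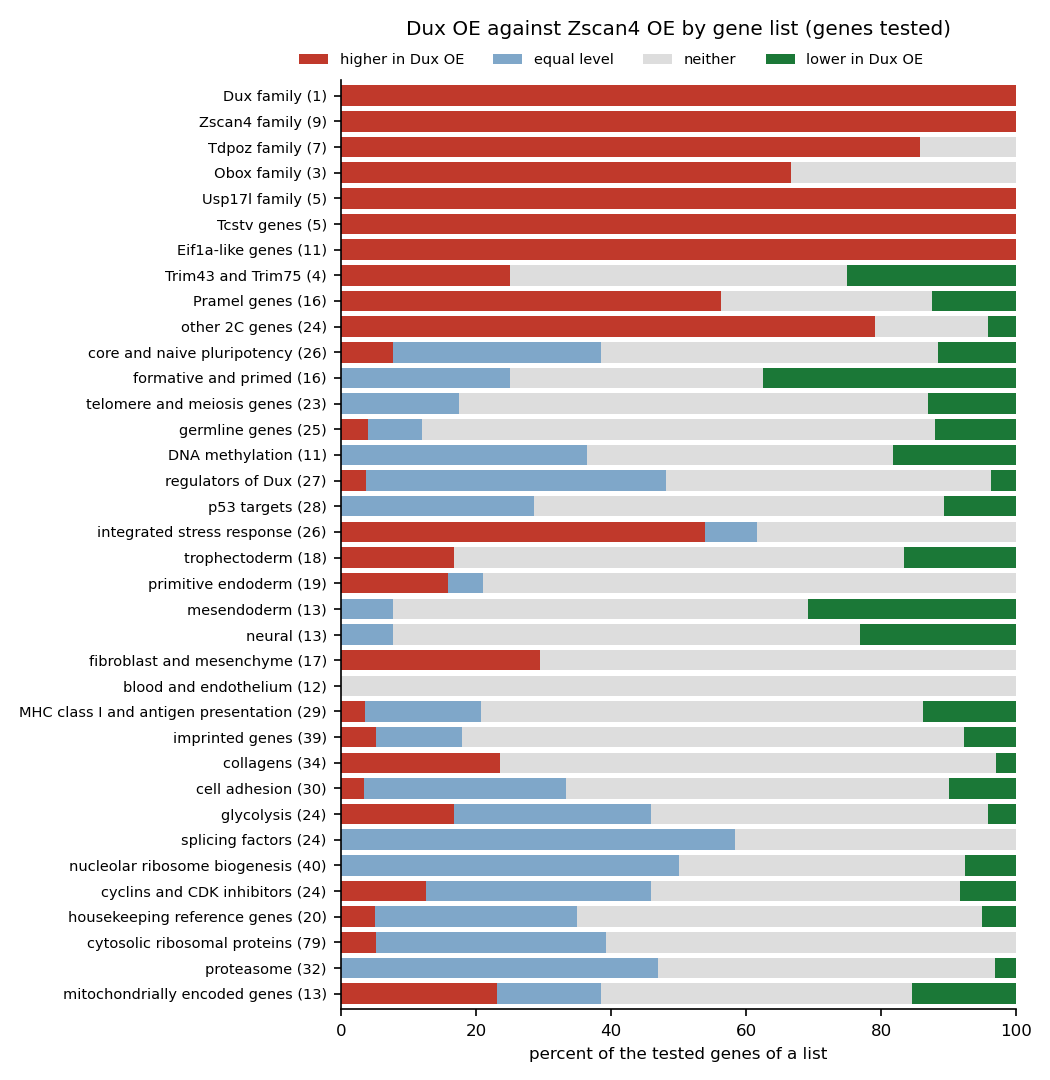
Share of the tested genes of each list (x axis, percent, number tested in brackets) that were higher in Dux OE, at equal level, neither, or lower in Dux OE than in Zscan4 OE. Most lists of 2C genes and the integrated stress response, with 14 of 26, show long bars for higher in Dux OE, and splicing factors, nucleolar genes and the proteasome have 14 of 24, 20 of 40 and 15 of 32 genes at equal level.

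Few genes met the bound for equal level and were also moved by both factors. The bound is narrow, and 14211 genes were neither called nor at equal level. The mean of both groups was higher than ESC for 1281 genes (6.11%) and lower for 492 (2.35%), and 30 (0.143%) and 12 (0.0573%) of the genes tested were so called and also at equal level. With an interval within 1 either way, they were 208 and 59. Sord, sorbitol dehydrogenase, was among those raised, with 101 and 104 CPM in Dux OE, 104 and 107 CPM in Zscan4 OE, 29.6 and 24.7 CPM in ESC and 47.6 and 49.5 CPM in DMSO, a log2 fold change of the mean of both over ESC of 1.94. Arap2, a GTPase-activating protein gene, had 19.8 and 24.0 CPM in Dux OE, 23.6 and 20.9 CPM in Zscan4 OE, 7.41 and 7.86 CPM in ESC and 3.91 and 3.67 CPM in DMSO. Both genes stood above ESC and DMSO under either factor. Hexa, a lysosomal hexosaminidase gene, had 45.0 and 42.9 CPM, 50.9 and 48.9 CPM, 17.6 and 19.9 CPM and 25.6 and 26.9 CPM in the same order, and Plk2, a p53 target, had 59.5 and 67.0 CPM, 75.5 and 72.0 CPM, 30.1 and 28.7 CPM and 6.92 and 9.16 CPM. Rims3, a synaptic gene, was raised over ESC as well, with 38.7 and 41.6 CPM and 35.5 and 41.3 CPM against 14.1 and 16.5 CPM, but DMSO had 46.6 and 44.1 CPM. Of the 30 genes, 7 were higher than DMSO in each of the 2 groups. Dusp27 was the lowered gene with the largest change, with 47.9 and 46.0 CPM in Dux OE, 51.8 and 45.9 CPM in Zscan4 OE, 138 and 141 CPM in ESC and 24.0 and 24.2 CPM in DMSO. Tfeb, a transcription factor of lysosome genes, had 17.7 and 19.6 CPM, 19.8 and 22.1 CPM, 40.5 and 42.4 CPM and 33.1 and 32.6 CPM, and so lay below both references under either factor, as did Pcyt1b and Slc7a3. Of the 12 lowered genes, 3 were lower than DMSO in each of the 2 groups. These counts fell to between 8 and 13 raised and 5 and 11 lowered genes when 1 Dux OE or Zscan4 OE library was left out.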

How the data were processed

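Poly(A) RNA of 26 libraries of R1 mouse ESCs was sequenced, and the raw gene counts were deposited by the authors as 1 whole-number value per gene and library, 55291 genes in all, with 0 columns left unused. The submitters' processing notes name FastQC, Trimmomatic, STAR, featureCounts, DESeq2 and the mm10 build; their versions, the strand setting and the treatment of reads that match several copies are not given in the sources used here.

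Libraries were grouped by title and treatment label. The 13 groups were fitted together, all 26 libraries in 1 model, with edgeR 4.0.16 in R 4.3.3 (filterByExpr, TMM normalization, quasi-likelihood F test without a replicate term), so that all groups shared 1 estimate of the spread. Of 55291 genes, 20953 passed the filter. A gene was called where its p, adjusted after Benjamini and Hochberg over all genes tested, was under 0.05 and its log2 fold change was 1 or more in size, and stood at equal level where the 95% interval of the log2 fold change lay within 0.5 either way. Fold changes used a prior count of 0.125. Where a group had no count, the fold is a bound against 3 counts per library, and with 1 to 3 counts it is a ratio with an exact counting interval; both cover counting error only. Within each class, the 12 genes with the widest log2 fold change were eligible to be named where the higher group reached 5 CPM and the libraries did not overlap, and beside them members of the gene lists and of the 2C families; other genes are said to be chosen after their values were seen. The comparison, the lists and this rule were chosen with earlier results of these data known. Promoters and their coordinates are RefSeq entries on GRCm38.p6, matched by symbol for 13364 genes.

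Replicates differed by more than sampling noise, with a chi-square per degree of freedom of 2.06 in Dux OE and 2.60 in Zscan4 OE, and were counted as separate. The replicate numbers were checked for pairing by the deviations of log2(CPM + 2) from the group means, which correlated at 0.0263 between Dux OE and Zscan4 OE. Alternatives were RLE size factors, DESeq2 1.42.0, no low-count filter, scaling by library size only, fewer libraries in the fit, a replicate block, each replicate left out, DMSO as the reference, and other thresholds. Of the SE KO RA libraries, 1 carries labels that disagree and was left out with its replicate in an alternative.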

Additional observations from a re-analysis of the deposited data

Results flagged for a closer look

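In 14 genes the 2 factors were called on opposite sides of ESC, 8 of them lower in Dux OE and higher in Zscan4 OE and 6 the reverse. Since both calls choose the genes, a wide difference between the factors was fixed by the choice, and its size is given as a description. The 5 at 5 CPM or more that the naming rule also took are given here. Egr1, with 3.79 and 4.73 CPM in Dux OE and 106 and 118 CPM in Zscan4 OE, differed between the factors by a log2 fold change of -4.71. Aire differed by -2.87, and Zic5, a zinc finger gene of neural progenitors, by -2.29, with 9.48 and 7.50 CPM in Dux OE, 40.2 and 42.4 CPM in Zscan4 OE and 18.9 and 18.9 CPM in ESC. Gm14221, a predicted gene, differed by -3.27, with 0.510 and 0.541 CPM, 4.85 and 5.38 CPM and 1.37 and 1.73 CPM in the same order. Gm281, also a predicted gene, was the one higher in Dux OE, with 7.87 and 9.12 CPM there, 0.971 and 0.652 CPM in Zscan4 OE and 2.18 and 2.13 CPM in ESC, a log2 fold change of 3.40. In DMSO, Egr1 (34.4 and 32.3 CPM) lay between the factors, whereas Zic5 (63.8 and 63.2 CPM) lay above both and Gm281 (0.284 and 0.165 CPM) below both.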

How the results depend on the processing

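Most counts stayed within 1.5 times of those reported under RLE size factors, library size only, no filter on low counts, DESeq2 and fewer libraries in the fit, with 1530 to 1766 genes higher and 958 to 1356 lower in Dux OE. Of the 2800 called genes, 2128 to 2789 kept their call with the same sign, the lowest without Zscan4 OE replicate 2, and the sign changed in 2 genes without either Dux OE replicate. With library size only, 53.01% of the called genes were higher in Dux OE, against 62.8%, and the median log2 fold change over all genes was -0.06. The edges of the classes moved with their thresholds. With no limit on the fold change, 4650 genes were higher and 3698 lower, and the specific classes held 1846 (Dux-raised), 2206 (Zscan4-raised), 1142 (Dux-lowered) and 2504 (Zscan4-lowered) genes. With an interval within 1 either way, 9731 genes stood at equal level, 208 of them raised and 59 lowered. With DMSO as the reference, there were 269 Zscan4-specific raised, 390 Dux-specific lowered and 240 Zscan4-specific lowered genes, and 59 raised and 56 lowered genes at equal level; the mean of both factors then lay on the other side of the reference for Dusp27 (0.99) and Rims3 (-0.21). With only the Dux OE, Zscan4 OE and ESC libraries fitted, 48 genes were raised at equal level. Leaving out each replicate in turn gave 1465 to 1703 genes higher, 867 to 1135 lower and 2961 to 3812 at equal level, 830 to 898 Dux-specific raised, 372 to 430 Zscan4-specific raised, 119 to 135 Dux-specific lowered and 322 to 373 Zscan4-specific lowered genes. The equal-level genes raised over ESC were 8 to 23 and those lowered 5 to 15, the raised ones 13 and 9 without Dux OE replicates 1 and 2, 8 and 11 without Zscan4 OE replicates 1 and 2, and the lowered ones 5 without Dux OE replicate 1; the lone library left was assumed to vary like the other groups. Among 188 named genes, 10 near the fold limit of 1 fell under it without 1 library or under another scaling, at sizes of the log2 fold change no lower than 0.77 (Gapdh without Zscan4 OE replicate 1), namely Arg2, Gapdh, Rpl37a, Tcf7l1, Tuba3a, Utp3, Zfp42, mt-Co3 and, as the mean of both factors against ESC, Slc7a3 and Tfeb, and Atf4 had 0.93 with library size only. With DMSO as the reference, Hexa had 0.84 and Tfeb -0.73. The calls of Duxf3, Klf17, Pramel7 and Trim43a lost their adjusted p without 1 library. Of their uncalled values, 46 moved by over 1 SE with library size only, 32 without the low-count filter and 10 without Dux OE replicate 2. The cause of these shifts was not tested beyond the setting itself. Low counts limit the rest, since 3 counts are worth up to 0.219 CPM.

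The replicate numbers are only shared between groups, and the deviations of same-numbered libraries correlated at 0.0263. With the replicate block, 1736 genes were higher and 1020 lower in Dux OE, 3905 stood at equal level (30 raised and 11 lowered), and 976, 438, 143 and 404 were specific to a factor in the order above; no count moved by over 1.5 times. Summing the counts over the 9 Zscan4 copies gave a log2 fold change of 3.27, beside a median of 3.15 over the single copies.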
